A study of Mus musculus with 6 samples.

Results

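The genes of cholesterol synthesis, sterol transport and control by sterol regulatory element-binding protein 2 (SREBP2) were examined in the liver of Balb/cBy mice, a substrain that the series calls KD, and of Balb/c mice, which it calls wild type. Members were chosen by name, with earlier results of these data known, as 28 genes of the mevalonate pathway, its regulators and sterol transporters. Each was read from the probe set of its symbol with the highest mean. Of the 28, 26 had a probe set of their own among 22180 measured genes. Idi1, an isomerase of isoprenoid units, shared its probe set with Gm13502 and is given apart, and Acat2 is not analysed here. Both groups held 3 male mice of 20 weeks, 1 Affymetrix array each, that had been fed for 12 weeks from 8 weeks of age on a diet with 58% of energy as fat, in individual cages. The titles call the arrays biological replicates, so p-values measure the spread between animals. What gene KD refers to is not said in the labels. BALB/cBy mice are known to carry a deletion in Acads, and substrains differ at other loci too, so an effect of 1 gene and an effect of the substrain cannot be told apart. Whether the mice were fasted, and the hour of sampling, are not stated in the labels.

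Cells make cholesterol from acetyl-CoA by way of mevalonate, isoprenoids, squalene and lanosterol. The membrane-bound factor SREBP2 switches on the genes of this route when sterols in the endoplasmic reticulum (ER) run low: Scap then escorts it to the Golgi, where proteases free its active part. Insig1 and Insig2 hold Scap in the ER when sterols are plentiful. In liver, surplus cholesterol leaves for bile through the Abcg5 and Abcg8 half-transporters, which oxysterols induce through the receptor LXR.

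No member of the pathway was told apart between the substrains by the test used. None of the 26 passed an adjusted p of 0.05 in limma's moderated test over all 23521 probe sets with 1 symbol, where the share passing was 0.0%. Likewise 0 members had an unadjusted p under 0.05, against 3.82% of all probe sets. Differences below are log2 levels in Balb/cBy minus Balb/c, with the standard error (SE) of that test. The difference was above 0 in 15 members and below 0 in 11, where 49.1% of all genes were above 0. The median was 0.026 over the members and -0.0028 over all genes. Renewed quantile normalization turned both the majority and the sign of the median, with 11 members above 0 and a median of -0.034. Without the 2 arrays of lowest weight, Balb/cBy replicate 1 and Balb/c replicate 3, 20 members were above 0 and the median was 0.19. The adjusted p was 0.999 for every member, and the smallest unadjusted p was 0.0534, for Sqle. The members' differences lay between -0.39 for Hmgcs1 and 0.58 for Fdps. Sqle was the single member whose groups did not overlap, where 7.83% of all genes had groups apart and 4.32% had them apart with Balb/cBy on top.

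**Figure D1:**
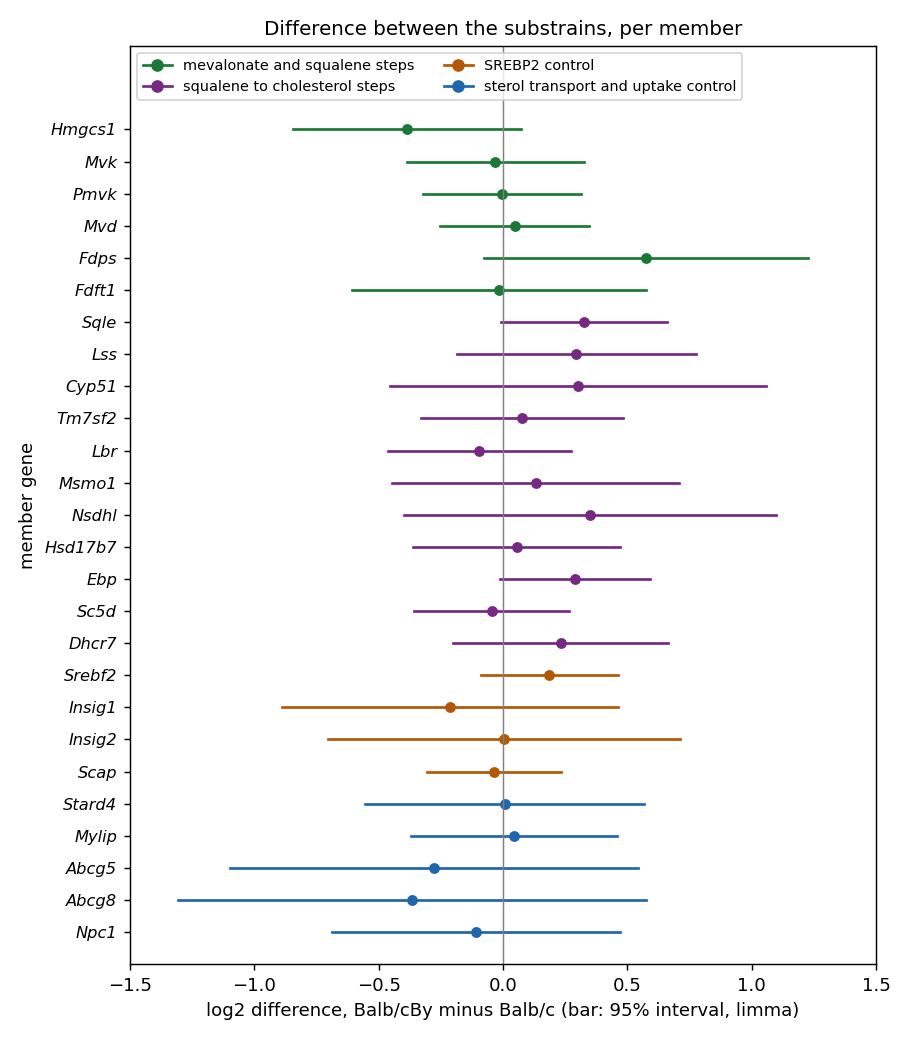
Log2 difference of each of the 26 measured members, Balb/cBy minus Balb/c (horizontal axis), coloured by role, with the 95% interval of limma's test as a bar (n = 3 arrays each). Every interval spans 0, with Fdps farthest to the right at 0.58 and Hmgcs1 farthest to the left at -0.39.

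In most members the widest spread was among the Balb/cBy mice. Balb/cBy replicate 2 read above Balb/cBy replicate 1 in 24 of 26 members and in all 17 synthesis enzymes, against 49.0% of all genes. Of the genes brighter than 8.01, the 95th percentile of the mean levels of 1108 olfactory receptor probe sets, the share was 65.6%. All 26 members were above that level on average, though Sqle (8.02) and Cyp51 (8.07) only just, with Balb/c means under it. The 2 animals were over 1 log2 unit apart in 8 members, namely Cyp51, Msmo1, Nsdhl, Insig1, Insig2, Stard4, Abcg5 and Abcg8, or 30.8%, against 1.07% of all genes and 1.55% of the brighter ones. Balb/cBy replicate 1 lay below every Balb/c array in 14 members, where 20.1% of all genes and 25.0% of the brighter ones did so. Balb/cBy replicate 2 lay above every Balb/c array in 15 members, where 28.4% of all genes and 37.4% of the brighter ones did so. Balb/cBy replicate 3 fell within the Balb/c range in 18 members, against 53.4% of all genes and 57.5% of the brighter ones. The gap between Balb/cBy replicates 1 and 2 was not particular to the members. Each of the other pathway lists described below also averaged higher on replicate 2. SREBP1 lipogenesis genes averaged 10.90 on Balb/cBy replicate 2 against 10.27 on replicate 1, and further sterol-responsive genes 10.34 against 9.86. Acute phase genes went the other way, at 12.43 against 12.90.

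**Figure D2:**
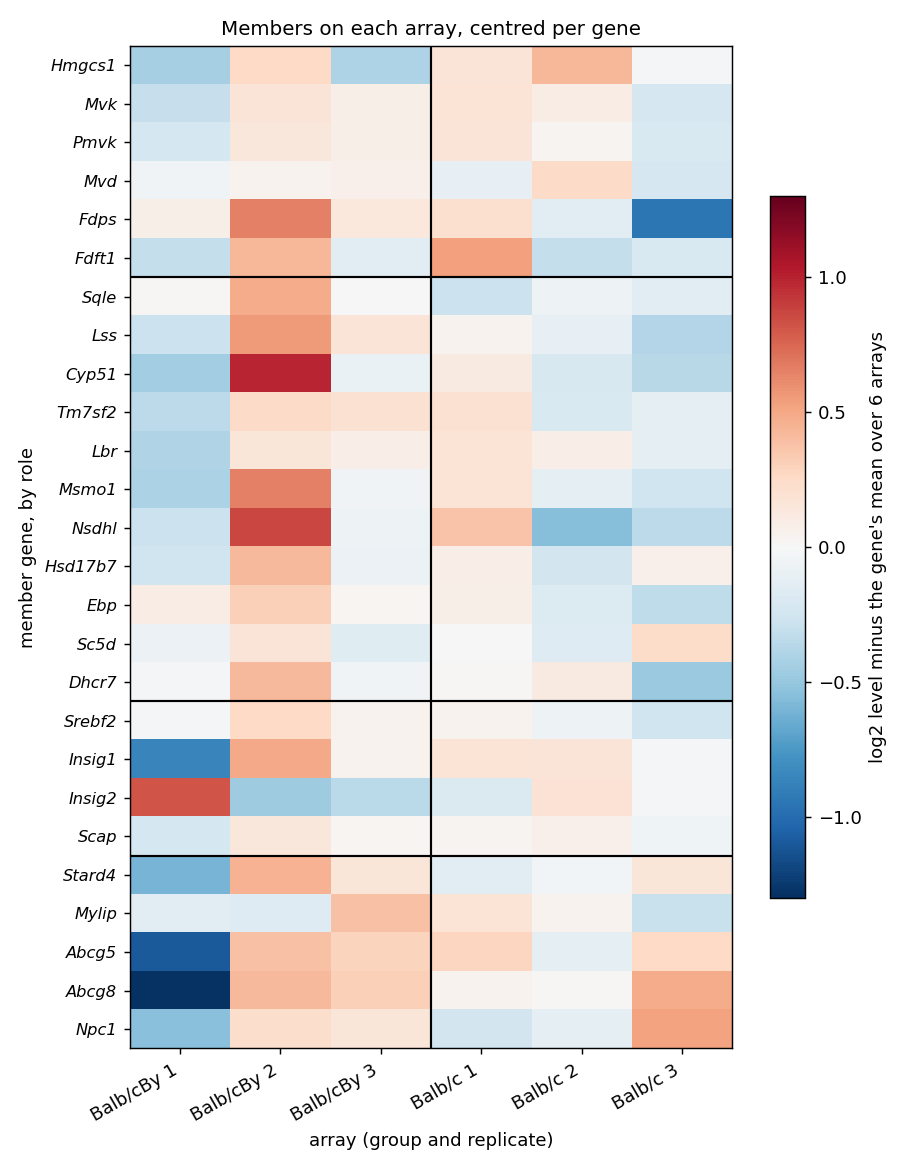
Log2 level of each member on each array minus that gene's mean over the 6 arrays (colour), with genes in rows by role and arrays in columns, Balb/cBy left of Balb/c. Balb/cBy replicate 2 is red over most rows and Balb/cBy replicate 1 blue over most, deepest in Abcg5 and Abcg8, while Insig2 runs the other way.

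The spread within the Balb/cBy group was wider than within Balb/c in 19 of 26 members, against 52.9% of all genes and 47.3% of the brighter ones. The median range over 3 arrays was 0.64 in Balb/cBy and 0.41 in Balb/c for the members. It was 0.25 in Balb/cBy and 0.23 in Balb/c for all genes, and 0.26 in Balb/cBy and 0.27 in Balb/c for the brighter ones. The Balb/cBy range exceeded the size of the difference between the groups in every member, as it did in 88.2% of all genes. The mean log2 level of the 17 synthesis enzymes was 9.03, 9.66 and 9.24 on the Balb/cBy arrays and 9.37, 9.17 and 9.01 on the Balb/c arrays. The lowest array of the enzymes was therefore a Balb/c array, and the highest a Balb/cBy array. The 5 transport genes averaged 9.34, 10.33 and 10.33 in Balb/cBy and 10.10, 10.02 and 10.30 in Balb/c, so there Balb/cBy replicate 1 alone stood low.

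The sense of the comparison depended on which Balb/cBy mouse was counted. Without Balb/cBy replicate 1, 23 of 26 members had a difference above 0, with a median of 0.19. Without Balb/cBy replicate 2, 10 did, and the median was -0.12. For the 17 synthesis enzymes the counts were 15 (median 0.26) without Balb/cBy replicate 1 and 7 (median -0.080) without Balb/cBy replicate 2, against 11 (median 0.077) with all arrays. No member passed the adjusted p of 0.05 in any of these fits.

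**Figure D3:**
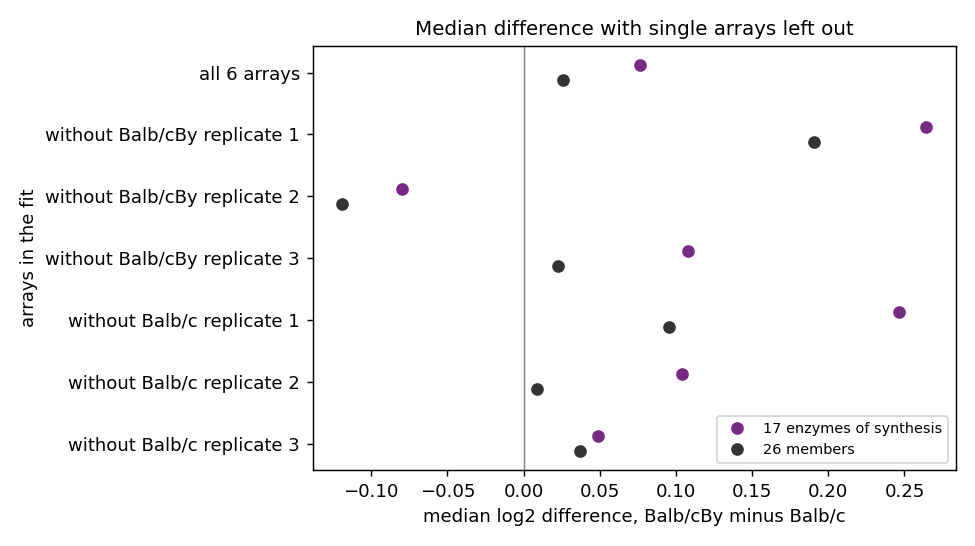
Median log2 difference, Balb/cBy minus Balb/c (horizontal axis), of the 17 synthesis enzymes and of the 26 members, with all 6 arrays and with each array left out in turn (vertical axis). Both medians are below 0 without Balb/cBy replicate 2, at -0.080 and -0.12, and above 0 in the other fits drawn, with 0.26 and 0.19 without Balb/cBy replicate 1.

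Promoters of Cyp51, Insig1, Insig2 and Abcg5, which spread over more than 1 log2 unit within Balb/cBy, and of Hmgcs1 are shown. The letters marked are fixed strings known from SREBP2 control, whether or not a gene shown is under it. Sterol elements of other letters were not searched, so a sequence without a marked one may still hold one. A mark is a match of letters, and binding was not tested. SREBP2 binds sterol regulatory elements together with the factor NF-Y, which binds the CCAAT box. Each stretch holds 300 bases, from 250 before to 50 after a gene's start, from RefSeq on GRCm38.p6. Capitals mark CCAAT on either strand (ATTGG where it lies on the other strand) and, in Hmgcs1, the sterol element type TCACNCCAC.
Hmgcs1 (chr13:119690101-119690400, plus strand): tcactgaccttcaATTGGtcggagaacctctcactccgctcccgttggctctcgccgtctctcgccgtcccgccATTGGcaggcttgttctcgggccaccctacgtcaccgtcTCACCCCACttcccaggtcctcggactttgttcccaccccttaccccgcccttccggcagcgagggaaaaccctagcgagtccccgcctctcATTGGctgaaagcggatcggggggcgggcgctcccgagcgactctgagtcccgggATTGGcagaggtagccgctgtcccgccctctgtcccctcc
Cyp51 (chr5:4104648-4104947, minus strand): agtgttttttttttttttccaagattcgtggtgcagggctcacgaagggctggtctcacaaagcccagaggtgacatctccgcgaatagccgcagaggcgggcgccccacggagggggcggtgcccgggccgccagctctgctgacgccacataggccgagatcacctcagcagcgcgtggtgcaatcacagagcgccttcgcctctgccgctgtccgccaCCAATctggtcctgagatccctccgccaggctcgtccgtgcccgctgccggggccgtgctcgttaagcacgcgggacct
Insig1 (chr5:28071162-28071461, plus strand): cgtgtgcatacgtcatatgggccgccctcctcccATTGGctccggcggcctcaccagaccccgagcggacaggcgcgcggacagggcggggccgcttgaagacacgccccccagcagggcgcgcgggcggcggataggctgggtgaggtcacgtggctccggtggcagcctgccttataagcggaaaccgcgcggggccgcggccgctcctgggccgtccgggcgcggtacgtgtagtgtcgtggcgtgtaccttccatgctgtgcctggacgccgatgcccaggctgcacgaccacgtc
Insig2 (chr1:121332540-121332839, minus strand): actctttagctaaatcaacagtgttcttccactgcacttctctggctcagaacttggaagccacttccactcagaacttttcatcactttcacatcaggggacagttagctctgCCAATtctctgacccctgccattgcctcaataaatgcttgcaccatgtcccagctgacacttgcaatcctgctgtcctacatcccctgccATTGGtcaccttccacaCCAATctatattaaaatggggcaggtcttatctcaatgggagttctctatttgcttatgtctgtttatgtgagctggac
Abcg5 (chr17:84682962-84683261, minus strand): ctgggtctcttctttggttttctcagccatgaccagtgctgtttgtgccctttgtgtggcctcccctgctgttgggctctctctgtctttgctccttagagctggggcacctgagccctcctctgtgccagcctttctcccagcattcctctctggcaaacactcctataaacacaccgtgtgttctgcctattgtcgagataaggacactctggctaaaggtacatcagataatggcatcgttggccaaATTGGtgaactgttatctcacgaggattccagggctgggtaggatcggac

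Of the 28 listed members, 23 had a window, and Fdps, Fdft1, Sqle, Stard4 and Npc1 were missing from the table. CCAAT on either strand was in 21 of the 30 windows of the members, or 70.0%, against 37.4% of all 32851 windows. The windows belonged to 21 of the 23 members, as some genes have several starts. The GC box GGGCGG, the letters of an Sp1 site, was in 23 of 30 windows, or 76.7%, against 35.7% of all. TCACNCCAC was in 1 window, that of Hmgcs1, against 1.24% of all windows. Some windows overlap, such as those of Abcg5 and Abcg8, so a match can count more than once. All windows were taken for comparison, without matching for base composition, so these shares do not show a feature of the pathway. No match of one motif overlapped a match of another in these windows. Hmgcs1, in the sequence above, carried 4 CCAAT matches, Insig2 carried 3 in the first of its windows, and Cyp51, Insig1 and Abcg5 1 each. Abcg5 and Abcg8 lie head to head with 110 bases between the starts used here, so the Abcg5 sequence above also holds the start of Abcg8.

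The early enzymes, which carry acetyl units to squalene, did not move as one. Hmgcs1, the cytosolic HMG-CoA synthase that opens the mevalonate route, read 9.25, 9.93 and 9.27 on the Balb/cBy arrays and 9.85, 10.11 and 9.66 on the Balb/c arrays. The groups overlapped through Balb/cBy replicate 2, and the difference was -0.39 ± 0.20 (SE), with a 95% interval of -0.85 to 0.07 and a level 0.765 times that of Balb/c. Fdps, which makes farnesyl diphosphate, went the other way, at 10.21, 10.79 and 10.27 in Balb/cBy and 10.35, 9.99 and 9.20 in Balb/c. Its difference was 0.58 ± 0.28 (SE, interval -0.07 to 1.23), or 1.49-fold, and Balb/c replicate 3 was the low array. Without that array the Fdps difference was 0.25.

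Mvk and Pmvk, the kinases that phosphorylate mevalonate in turn, were nearly level. Mvk averaged 8.47 ± 0.25 in Balb/cBy and 8.50 ± 0.21 in Balb/c (SD, n = 3 each), and Pmvk 8.65 ± 0.20 in Balb/cBy and 8.65 ± 0.18 in Balb/c (SD, n = 3 each). Both were lowest on Balb/cBy replicate 1 and highest on Balb/c replicate 1. Mvd, the decarboxylase that follows, differed by 0.047 ± 0.13 (SE) and had the narrowest Balb/cBy range of any member, 0.11. Fdft1, squalene synthase, read 9.82, 10.56 and 9.99 in Balb/cBy and 10.67, 9.82 and 9.93 in Balb/c. One array in each group stood high, Balb/cBy replicate 2 and Balb/c replicate 1, and the group difference was -0.017 ± 0.26 (SE). The probe set that Idi1 shares read 7.95, 8.77 and 7.80 in Balb/cBy and 7.87, 7.76 and 8.04 in Balb/c, with Balb/cBy replicate 2 again on top.

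The later enzymes, from squalene to cholesterol, held most of the differences above 0: 9 of 11, with a median of 0.23. This too rested on Balb/cBy replicate 2, without which 5 of 11 were above 0 and the median was -0.030. Sqle, squalene epoxidase, the entry to the sterol part of the route, read 8.03, 8.49 and 8.01 in Balb/cBy and 7.74, 7.95 and 7.87 in Balb/c. The groups did not overlap, though the lowest Balb/cBy array (8.01) came near the highest of Balb/c (7.95). The difference was 0.33 ± 0.14 (SE, interval -0.0061 to 0.66, 1.25-fold). The Balb/c mean of 7.85 lay under the olfactory receptor level of 8.01. Ebp, a sterol isomerase, read 11.25, 11.46 and 11.17 in Balb/cBy and 11.22, 10.97 and 10.82 in Balb/c, a difference of 0.29 ± 0.13 (SE, interval -0.011 to 0.59). Its groups overlapped through Balb/c replicate 1. Without Balb/cBy replicate 2 the differences were 0.17 for Sqle and 0.21 for Ebp.

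Cyp51, which removes a methyl group from lanosterol, showed the widest range within Balb/cBy among the enzymes. It read 7.63, 9.06 and 7.98 in Balb/cBy and 8.19, 7.86 and 7.72 in Balb/c. Balb/cBy held both the highest and the lowest array, 1.44 log2 units apart, beside a group difference of 0.30 ± 0.33 (SE). The Balb/c mean of 7.92 was under the olfactory receptor level. Nsdhl, a dehydrogenase of C4 demethylation, read 8.80, 9.94 and 9.01 in Balb/cBy and 9.45, 8.53 and 8.74 in Balb/c. Its difference of 0.35 ± 0.33 (SE) was the largest among the later enzymes, and it was 0.0043 without Balb/cBy replicate 2. Msmo1, the oxidase of that demethylation, read 8.60, 9.66 and 8.97 in Balb/cBy and 9.19, 8.89 and 8.75 in Balb/c, a difference of 0.13 ± 0.25 (SE). In Cyp51, Nsdhl and Msmo1 alike, Balb/cBy replicate 2 was the highest of the 6 arrays.

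Lss, which closes the lanosterol rings, read 8.37, 9.21 and 8.82 in Balb/cBy and 8.70, 8.55 and 8.27 in Balb/c, a difference of 0.30 ± 0.21 (SE). Dhcr7, the reductase of 7-dehydrocholesterol, read 9.10, 9.56 and 9.08 in Balb/cBy and 9.14, 9.25 and 8.65 in Balb/c, a difference of 0.23 ± 0.19 (SE). In both, Balb/cBy replicate 2 was the highest array and Balb/c replicate 3 the lowest, as in Fdps, Ebp and Srebf2. Tm7sf2 and Lbr, sterol C14 reductases of the ER and the nuclear envelope, differed by 0.077 ± 0.18 and -0.095 ± 0.16 (SE), and both were lowest on Balb/cBy replicate 1. Hsd17b7, a ketosteroid reductase, differed by 0.055 ± 0.18 (SE), and Sc5d, a desaturase late in the route, by -0.045 ± 0.14 (SE). Sc5d was highest on Balb/c replicate 3, unlike any other enzyme.

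Among the regulators, the sensor pair Insig1 and Insig2 ran in opposite directions within Balb/cBy. Insig1, itself a known SREBP target, read 10.13, 11.48 and 11.04 in Balb/cBy and 11.17, 11.16 and 10.97 in Balb/c. Insig2, known in mouse liver to be lowered by insulin, read 11.69, 10.42 and 10.53 in Balb/cBy and 10.70, 11.07 and 10.86 in Balb/c. Balb/cBy replicate 1 was thus the lowest array for Insig1 and the highest for Insig2, and Balb/cBy replicate 2 the reverse. The Balb/cBy range was 1.35 for Insig1 and 1.28 for Insig2, while the 3 Balb/c arrays had an SD of 0.11 and 0.19 in the same order. As group means they differed by -0.21 ± 0.29 and 0.0048 ± 0.31 (SE). Without Balb/cBy replicate 1 the differences were 0.16 for Insig1 and -0.40 for Insig2, and neither passed.

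Srebf2, which encodes SREBP2, read 9.51, 9.80 and 9.59 in Balb/cBy and 9.58, 9.47 and 9.28 in Balb/c, a difference of 0.19 ± 0.12 (SE, interval -0.088 to 0.46). The groups overlapped through Balb/c replicate 1, and the difference was above 0 with each array left out, at 0.10 to 0.26. Scap averaged 10.47 ± 0.19 in Balb/cBy and 10.51 ± 0.065 in Balb/c (SD, n = 3 each). Its dimmer second probe set differed by 0.0017 ± 0.099 (SE). Srebf2 and Scap had the smallest within-group SDs of all members, 0.15 and 0.14, where the median of the brighter genes was 0.155.

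**Figure D4:**
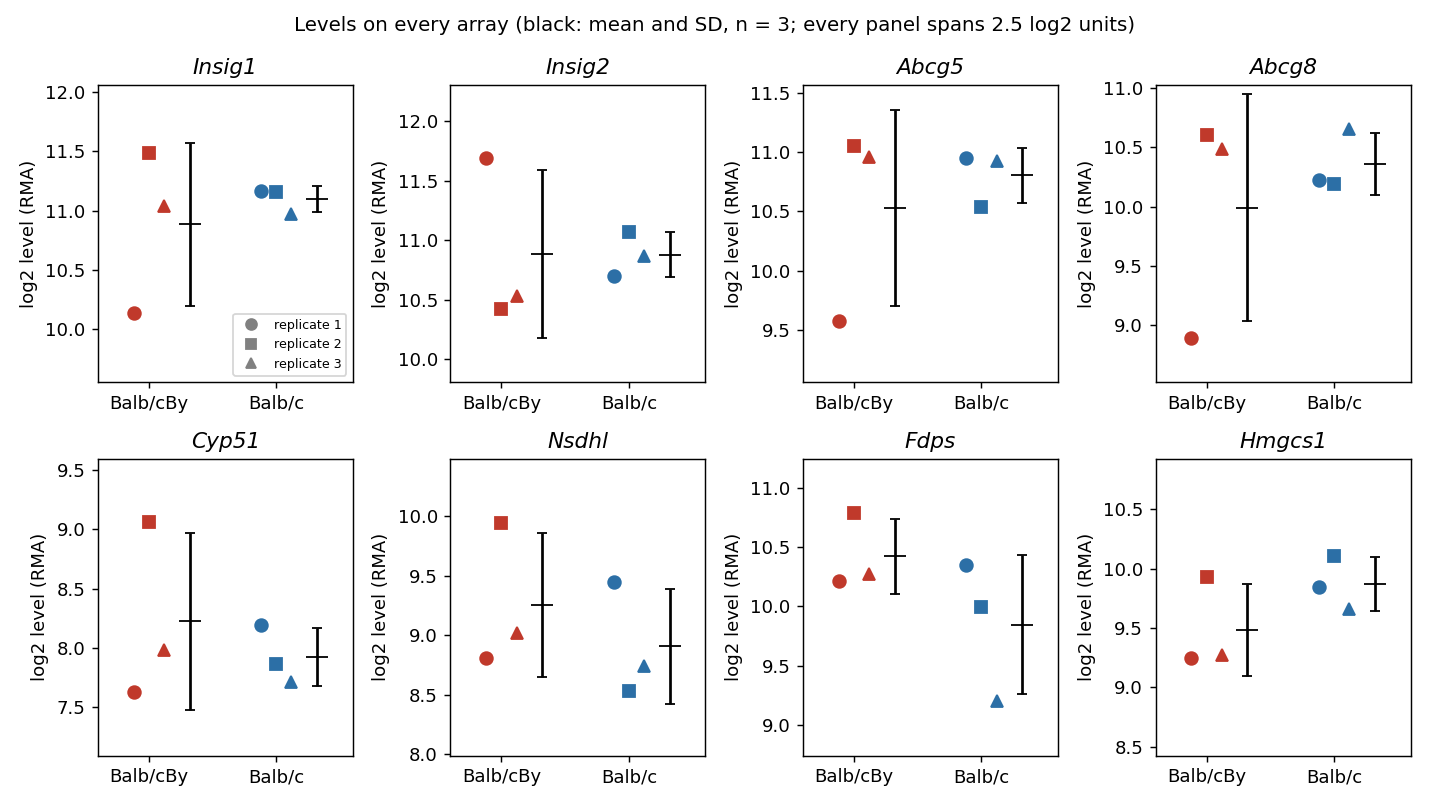
Log2 level (vertical axis, each panel spanning 2.5 units) of 8 members on every array, Balb/cBy left and Balb/c right, with the marker giving the replicate number and black bars the mean and SD (n = 3 each). Balb/cBy replicate 1 is low in Insig1, Abcg5 and Abcg8 and high in Insig2, Balb/cBy replicate 2 is high in Cyp51 and Nsdhl, and Balb/c replicate 3 is low in Fdps.

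The biliary half-transporters Abcg5 and Abcg8 had the widest within-group spread of all members and shared a low Balb/cBy replicate 1. Abcg5 read 9.58, 11.05 and 10.95 in Balb/cBy and 10.95, 10.54 and 10.93 in Balb/c. Abcg8 read 8.89, 10.60 and 10.48 in Balb/cBy and 10.22, 10.19 and 10.66 in Balb/c. Balb/cBy replicate 1 stood below the other 5 arrays in both genes, and those 5 arrays overlapped between the groups. Differences were -0.28 ± 0.36 (SE) for Abcg5 and -0.36 ± 0.41 (SE) for Abcg8. Without Balb/cBy replicate 1 they were 0.20 and 0.18, with limma's adjusted p of 0.720 and 0.755.

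Stard4, a soluble sterol carrier that SREBP2 is known to induce, read 8.13, 9.19 and 8.89 in Balb/cBy and 8.60, 8.70 and 8.90 in Balb/c. Its group difference was 0.0064 ± 0.24 (SE), and Balb/cBy replicates 1 and 2 were its lowest and highest arrays. Npc1, which exports cholesterol from lysosomes, read 10.40, 11.17 and 11.10 in Balb/cBy and 10.70, 10.82 and 11.46 in Balb/c, a difference of -0.11 ± 0.25 (SE). Its second probe set, at a mean level under the olfactory receptor level, was highest on Balb/c replicate 3 and lowest on Balb/c replicate 1, and among the Balb/cBy arrays highest on replicate 1, where the brighter one was lowest. Mylip, a ubiquitin ligase that LXR induces and that degrades lipoprotein receptors, read 9.68, 9.66 and 10.21 in Balb/cBy and 10.01, 9.87 and 9.53 in Balb/c. It was the single member highest on Balb/cBy replicate 3, with a difference of 0.045 ± 0.18 (SE).

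Other genes around the pathway gave 0 calls at the adjusted p of 0.05. Among 8 measured partners of SREBP processing and sterol-dependent degradation, 4 differences were above 0 and 4 below (median -0.00050). Pgrmc1, a haem-binding ER protein reported to bind Insig1 and Scap, differed by -0.34 ± 0.12 (SE), with 12.66, 12.44 and 12.45 in Balb/cBy and 12.72, 12.83 and 13.03 in Balb/c. Of 9 further genes that respond to SREBPs or sterols, 6 were above 0 (median 0.064), led by the fatty acid-binding protein Fabp5 at 1.32 ± 0.29 (SE) and Tmem97, which binds Npc1, at 0.39 ± 0.16 (SE). Acss2, Pnpla3, Fads1 and Fads2 are in this list and also among the SREBP1 lipogenesis genes below. Fabp5 read 10.04, 9.59 and 9.11 in Balb/cBy and 7.75, 8.27 and 8.75 in Balb/c, so its groups did not overlap, and its highest array was the one lowest in Abcg5, Abcg8 and Insig1. Its adjusted p was 0.586. Aacs, which activates acetoacetate for sterol synthesis, read 8.90, 10.30 and 9.73 in Balb/cBy and 9.96, 9.22 and 9.36 in Balb/c, with Balb/cBy replicates 1 and 2 at the ends.

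Genes of isoprenoid branches, which lead to ubiquinone, dolichol and prenylated proteins, differed little, with 8 of 12 above 0 and a median of 0.070. Ggps1, which makes geranylgeranyl diphosphate, had the smallest p of them at 0.120 unadjusted (0.19 ± 0.11 SE in limma's fit). Its mean level of 7.34 was under the olfactory receptor level. Cholesterol traffic genes split 10 to 10 (median 0.031), and LXR and oxysterol genes 5 to 4 (median 0.025), with Abca1 and Abcg1 in both lists. Cyp27a1, a mitochondrial sterol hydroxylase, differed by 0.21 ± 0.098 (SE) with groups that did not overlap, at 12.15, 12.35 and 12.39 in Balb/cBy and 12.08, 12.07 and 12.12 in Balb/c. Abca1, another LXR target, read 10.72, 11.10 and 10.83 in Balb/cBy and 10.51, 10.78 and 11.14 in Balb/c. Its lowest array was Balb/c replicate 1. Srebf1, on the same list, was lowest on Balb/cBy replicate 1, at 9.65, as were Abcg5 and Abcg8. A part of LXR in these levels was not tested.

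Other lists varied between arrays as well, and not all in the way the members did. The 13 genes of SREBP1 lipogenesis averaged 10.27, 10.90 and 10.78 in Balb/cBy and 11.01, 10.69 and 10.60 in Balb/c, so Balb/cBy replicate 1 was the lowest array there too. Scd1, a fatty acid desaturase with the smallest p of these genes, read 11.92, 12.41 and 12.66 in Balb/cBy and 13.21, 13.09 and 13.42 in Balb/c. Its groups did not overlap, and the difference was -0.91 ± 0.18 (SE), with limma's adjusted p of 0.470, which did not pass. Srebf1, their factor, read 9.65, 10.35 and 10.44 in Balb/cBy and 10.61, 10.12 and 10.17 in Balb/c. Acute phase genes (8 measured) averaged 12.90, 12.43 and 12.50 in Balb/cBy and 12.97, 13.00 and 11.28 in Balb/c, where Balb/c replicate 3 stood apart, though not in every gene. Of their differences, 7 were above 0 and 1 below (median 0.35). Steap4, with the smallest p of these genes, differed by 1.09 ± 0.22 (SE) with groups that did not overlap, and limma's adjusted p was 0.455. Balb/c replicate 3 was the lowest of the 6 arrays for 7 members, against 19.4% of all genes. Limma's array weights were 0.471, 0.824 and 2.47 for the Balb/cBy arrays and 2.04, 0.805 and 0.635 for the Balb/c arrays, so Balb/cBy replicate 1 weighed least.

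Markers of hepatocytes were bright on all arrays, with a mean of 7 genes from 12.93 to 13.09 in Balb/cBy and from 12.86 to 12.98 in Balb/c. Kupffer cell markers (8 genes) ran from 9.60 to 10.06 in Balb/cBy and from 9.35 to 10.17 in Balb/c, with 4 above 0 and 4 below. Stellate cell markers (8 genes, 7 above 0) ran from 9.45 to 9.72 in Balb/cBy and from 9.23 to 9.53 in Balb/c, and endothelial markers (6 genes, 4 above 0) from 9.83 to 10.07 in Balb/cBy and from 9.89 to 10.02 in Balb/c. Neutrophil markers (6 genes, 5 above 0 and 5 under the olfactory receptor level) ran from 6.97 to 7.16 in Balb/cBy and from 6.68 to 6.95 in Balb/c. Lymphocyte markers (7 genes, 5 under that level) ran from 7.27 to 7.45 in Balb/cBy and from 7.30 to 7.36 in Balb/c. Of these, 6 were below 0 and 1 above, Jchain at 1.12 ± 0.28 (SE), with groups that did not overlap. Its mean was under that level in Balb/c (7.03) and over all arrays (7.59), and above it in Balb/cBy (8.15). Cholangiocyte markers (4 genes, 1 above 0, 3 under that level) ran from 7.74 to 7.96 in Balb/cBy and stood at 7.86 on every Balb/c array. Exocrine pancreas markers (3 genes, 0 above 0, 2 under that level) ran from 7.30 to 7.74 in Balb/cBy and from 7.58 to 8.13 in Balb/c. The part of any of these in the members' levels was not tested, and in whole liver fewer cells of a type and less RNA per cell cannot be told apart.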

How the data were processed

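Liver RNA of 6 mice, extracted with Trizol (500 ng per array), was measured on Affymetrix arrays. The deposited values are log2 levels per probe set, made with RMA per the submitters' processing notes. No label states the software, its version or the genome build. RMA quantile-normalizes arrays and compresses low values, so dim genes show less than their true difference. The values ran from 3.31 to 14.84, with array medians from 7.98 to 8.03. No detection measure was available, so 8.01, the 95th percentile of olfactory receptor means, stands in for background. The number of arrays limits the precision.

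Of 41345 probe sets, 23521 carry 1 symbol in the platform annotation and 1814 several, and the rest are unnamed here. Samples were grouped by their titles. limma 3.58.1 in R 4.3.3 was fitted to the 23521 with the group as its single term. Tests were two-sided and p-values were adjusted (Benjamini-Hochberg) across the 23521. A permutation test of 3 against 3 could not go below 0.1. The members and lists were chosen with earlier results of these data known. Every member is named, with array values for those of smallest p, largest difference or widest spread and for Srebf2, Insig1, Insig2, Abcg5 and Abcg8, to which further members were added after their values were seen. Up to 3 genes of other lists were taken by smallest p; Abca1, Aacs and Srebf1 were named after their values were seen. Promoter windows and motifs were chosen after the values were seen.

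The alternatives were renewed quantile normalization, median centring, array weights, trend and robust moderation, a replicate block, brighter probe sets alone, averaged probe sets, each array left out and the 2 arrays of lowest weight left out.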

Additional observations from a re-analysis of the deposited data

How the results depend on the processing

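No member passed limma's adjusted p of 0.05 under any alternative, the smallest being 0.427, for Npc1. The count of probe sets passing, 0 with all arrays alike, was 31 with array weights, 16 without the 2 arrays of lowest weight, and 0 to 4 with single arrays left out (4 without Balb/cBy replicate 1, 2 without Balb/c replicate 3). With single arrays left out, 10 to 23 members, 7 to 15 synthesis enzymes and 5 to 10 later enzymes had a difference above 0, the medians running from -0.12 to 0.19, from -0.080 to 0.26 and from -0.030 to 0.31; the cause was not tested. Renewed quantile normalization turned the members' median to -0.034. The titles do not say whether replicate numbers pair the mice. Deviations of same-numbered arrays correlated at -0.32, -0.19 and -0.23, and no Balb/cBy array correlated best with its own number. So few arrays cannot exclude a pairing or a shared batch. With the replicate block 0 members were called. In this balanced design a block cannot change the differences, so its members median of 0.026 says nothing about pairing.

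The sign of 18 of 26 members turned with some array left out: Mvk (-0.15 to 0.11), Pmvk (-0.10 to 0.11), Mvd (-0.049 to 0.18), Fdft1 (-0.24 to 0.25), Cyp51 (-0.12 to 0.60), Tm7sf2 (-0.030 to 0.26), Lbr (-0.20 to 0.077), Msmo1 (-0.16 to 0.37), Hsd17b7 (-0.14 to 0.20), Sc5d (-0.14 to 0.064), Insig1 (-0.51 to 0.16), Insig2 (-0.40 to 0.24), Scap (-0.12 to 0.069), Stard4 (-0.22 to 0.31), Mylip (-0.13 to 0.15), Abcg5 (-0.54 to 0.20), Abcg8 (-0.67 to 0.18) and Npc1 (-0.25 to 0.14). The other 8 kept theirs. Signs also turned with array weights for Hsd17b7 (-9.5e-05), Insig2 (-0.16), Abcg8 (0.015) and Npc1 (0.16), with renewed quantile normalization for Mvd (-0.0050), Insig2 (-0.069), Stard4 (-0.071) and Mylip (-0.021), and with median centring for Pmvk (0.0052). Without the 2 arrays of lowest weight they turned for Pmvk (0.013), Mvd (-0.017), Fdft1 (0.027), Sc5d (0.091), Insig1 (0.099), Insig2 (-0.41), Scap (0.033), Mylip (-0.0077), Abcg5 (0.26), Abcg8 (0.33) and Npc1 (0.37). The cause was not tested. Counts of members and enzymes above 0, and the enzymes' medians, were added after seeing the data.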
